A study of Mus musculus with 8 samples.

Results

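The genes described here encode 5 bone morphogenetic protein (BMP) ligands, *Bmp2*, *Bmp4*, *Bmp5*, *Bmp7* and *Bmp10*, and 5 secreted proteins that bind them outside the cell, *Nog*, *Chrd*, *Grem1*, *Bmper* and *Twsg1*. They were taken by gene symbol, whatever their values, and make 10 of the 48526 genes in the count table. RNA was sequenced from the paired heart fields, left and right, of 4 male wild-type C57bl6/J mouse embryos at stage E8.5f, named L29-3, L43-5, L46-8 and L49-3, giving 8 libraries. The left and the right group thus share genotype, strain, sex and stage, and carry no transgene or treatment. By their labels they differ in the side alone, although depth and the mixture of tissues also varied. Each heart field was dissected from the level under the headfolds down to the second somite, without the heart and the back, and was cut at the midline, so that each library is a mixture of tissues from 1 side of 1 embryo.

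BMPs are secreted ligands of the TGF-beta superfamily. They bind pairs of type I and type II serine/threonine kinase receptors, which phosphorylate SMAD1, SMAD5 and SMAD9, and these enter the nucleus with SMAD4 to act on target genes such as the *Id* genes. Noggin, chordin and gremlin hold ligands away from their receptors, whereas BMPER and TWSG1 can lower or raise signaling depending on the context. In the early embryo, BMPs take part in the specification of cardiac mesoderm and in left-right patterning of the lateral plate, and the notochord is a known source of noggin and chordin.

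Total counts ranged from 1147446 to 3520753 per library, and the absence of reads allows a level of up to 0.845 CPM (counts scaled to the same library total) in the deepest library and 2.64 CPM in the shallowest, a limit that covers counting error only. The second heart field list (7 genes, including *Isl1* and *Fgf8*) was measured in all libraries, with sums of 629 to 933 normalized counts, and all 7 genes were tested. Although the heart had been removed, the cardiomyocyte list (8 genes) summed to between 709 and 5640 normalized counts. L49-3 stood apart in the juxta-cardiac field list (4 genes), at 71.2 on the left and 161 on the right, where the other 6 libraries had 349 to 708. In bulk tissue, fewer cells of a type and less RNA per cell cannot be told apart. Normalized counts are counts divided by the DESeq2 size factor of the library, and under the rule of the study a gene was tested when it reached 20 normalized counts in at least 4 libraries.

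*Bmp7* was the most abundant of the 10 transcripts and *Twsg1*, which encodes a protein that binds both BMPs and chordin, the most abundant of the binding proteins. Levels between genes were compared as TMM-normalized CPM per kb of exons, a scale that corrects for gene length. On this scale, *Bmp7* had a level of 30.4 ± 1.64 (SD, n = 4 embryos) and *Twsg1* of 21.6 ± 1.28. *Bmp4* followed at 21.5 ± 3.43, *Bmp2* at 9.73 ± 3.96 and *Bmp5* at 8.66 ± 1.22. The other binding proteins were lower, with *Nog* at 5.22 ± 0.502, *Grem1* at 3.44 ± 0.658, *Bmper* at 1.80 ± 0.251 and *Chrd* at 0.788 ± 0.408. *Bmp10* was the lowest, at 0.641 ± 0.164. Neighbours in this order differed by less than their spread in 3 cases. *Twsg1* exceeded *Bmp4* in 5 of 8 libraries, *Bmp2* exceeded *Bmp5* in 5 of 8, and *Chrd* exceeded *Bmp10* in 5 of 8. The other neighbours differed by more than the spread of their difference between embryos, and the upper gene was higher in all 8 libraries, with the exception of *Nog* over *Grem1*, which held in 7. No test was run on this order.

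**Figure D1:**
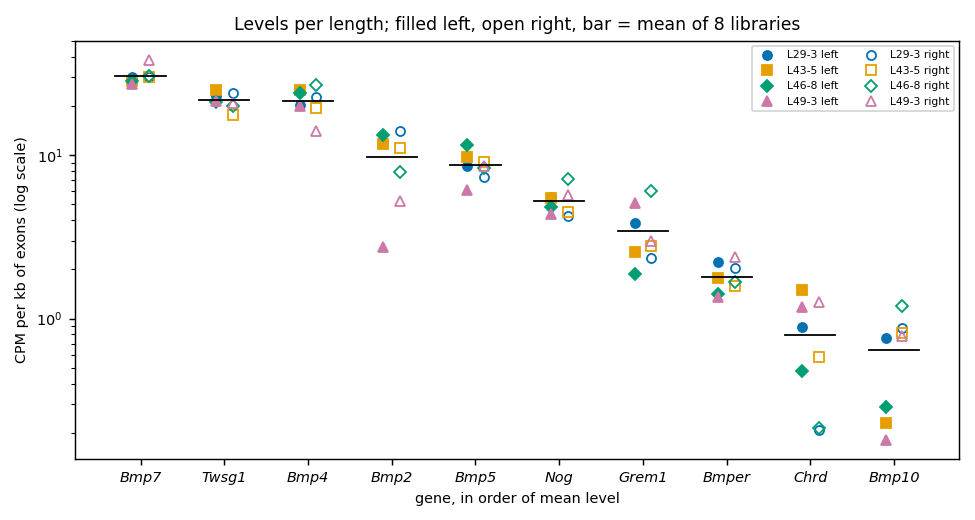
Levels of the 10 genes in TMM-normalized CPM per kb of exons, on a log scale, with genes in the order of their mean. Filled symbols are left libraries, open symbols right libraries, symbol shapes are embryos and bars are means of 8 libraries; *Bmp7* is highest at a mean of 30.4 and *Bmp10* lowest at 0.641.

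The 5 ligands together had a summed level of 70.0 ± 9.48 CPM per kb in the left libraries (SD, n = 4) and 71.8 ± 3.83 in the right ones. Left and right sums of the 5 binding proteins were 33.7 ± 2.93 and 32.0 ± 3.53. Both sums overlapped between the sides. The ratio of the ligand sum to the binding protein sum was 2.09 ± 0.377 for the left and 2.26 ± 0.260 for the right side, and lay between 1.68 and 2.62 in single libraries. *Bmp7* made up 36.6% to 57.3% of the ligand sum, with the highest share in the right library of L49-3. *Twsg1* made up 57.2% to 73.2% of the binding protein sum. A transcript level says nothing about the amount of active protein, since BMPs are cleaved from precursors and antagonists differ in affinity.

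The comparison of the sides asked whether these genes differ between the left and the right heart field of the same embryo. None of the 6 genes that could be tested, *Bmp2*, *Bmp4*, *Bmp5*, *Bmp7*, *Grem1* and *Twsg1*, passed the threshold of the study (absolute fold change of at least 1.2 and unadjusted p not above 0.05) when edgeR's quasi-likelihood test was run with the embryo as a block. Over all 9744 genes tested, 297 did, or 3.05%. No member had an adjusted p under 0.05 either, which held for 1 gene of all tested, or 0.0103%. The unadjusted p of the 6 genes from edgeR lay between 0.114 and 0.772, so that 0 were at or under 0.05, and this count was also 0 with DESeq2 and with limma-voom. The lowest adjusted p from edgeR was 0.987. The median log2 fold change of left over right was 0.09 for these 6 genes and -0.0042 for all genes tested. *Nog*, *Chrd*, *Bmper* and *Bmp10* were under the filter on low counts and are described from a fit to all 23873 genes with a read. That fit has its own error estimates, so its p and intervals are not on the same footing as those of the 6 tested genes. For *Grem1*, edgeR gave an unadjusted p of 0.639 in that fit and 0.717 in the main one, at log2 fold changes of -0.12 and -0.13.

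**Figure D2:**
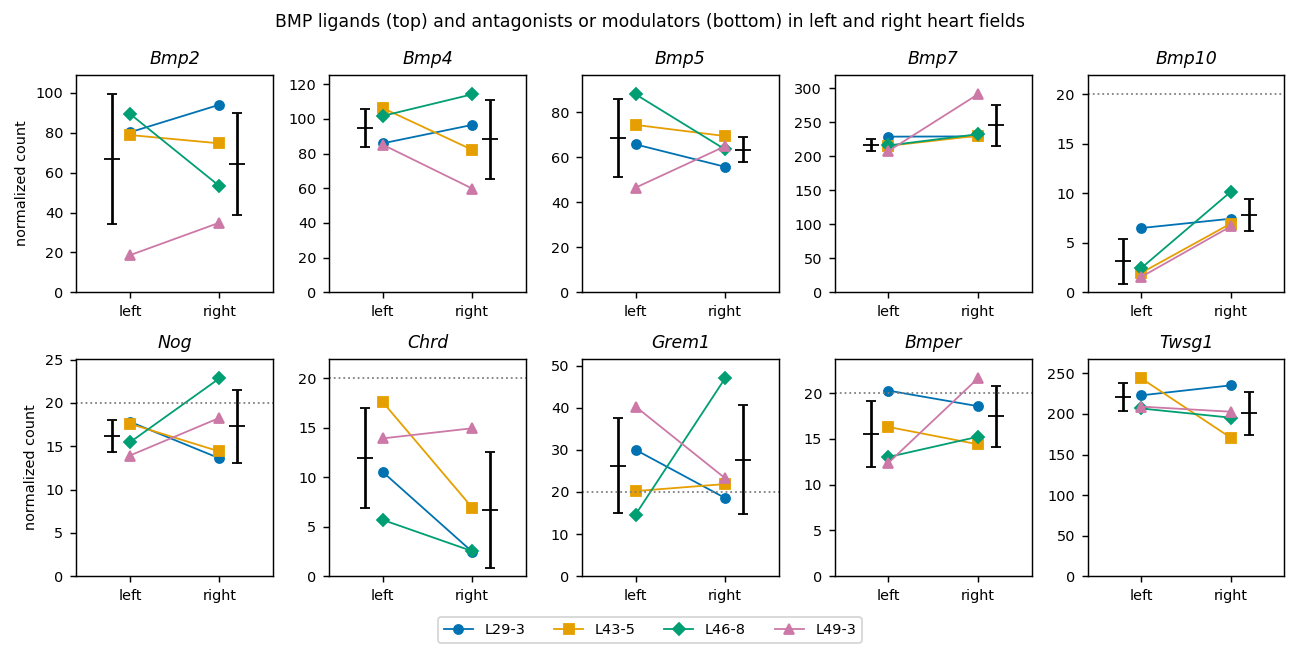
Normalized counts of each gene in the left and right heart field, ligands above and binding proteins below; lines join both sides of an embryo, and black bars are means with SD (n = 4 embryos). The dotted line marks 20 normalized counts where the axis is near it, and *Bmp10* and *Chrd* stay under it in all 8 libraries.

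*Bmp7* (ENSMUSG00000008999) lies on chromosome 2 of GRCm38, from 172868012 to 172940321, on the minus strand, and encodes a ligand that can pair with BMP2 or BMP4. Its normalized counts on the left and right were 228.6 and 229.0 for L29-3, 215 and 230.0 for L43-5, 216 and 232 for L46-8, and 207 and 291 for L49-3. The lowest right library was thus level with the highest left library, and the right library of L49-3 was above all others. Left and right means were 217 ± 8.76 and 246 ± 30.2 (SD, n = 4). The log2 fold change was -0.16 (standard error 0.0943, 95% interval -0.37 to 0.04), where edgeR gave an adjusted p of 0.987. The sides did not overlap in normalized counts, but did in TMM-normalized CPM, where the highest left library had 121.1 CPM and the lowest right library 120.8. Non-overlapping sides were seen for 465 of 23873 genes, or 1.95%. The neural tube list (5 genes) had ratios of left to right of 1.50 for L29-3, 0.487 for L43-5, 0.282 for L46-8 and 0.612 for L49-3. *Bmp7* was lower on the left in all 4 embryos in normalized counts and in all but L29-3 in TMM-normalized CPM. Of the 3 tested genes of the neural tube list, *Sox1* and *Pax6* passed the threshold of the study, against 3.05% of all genes tested. These transcription factor genes were lower on the left, at log2 fold changes of -0.98 and -0.83. *Sox3*, at -0.26, did not pass. The part of neural tube content in the values of *Bmp7* was not tested.

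*Bmp4* (ENSMUSG00000021835; chromosome 14, 46383520 to 46390669, minus strand) encodes the close paralogue of BMP2 that is needed early for mesoderm formation. Its left and right normalized counts were 85.9 and 96.6 for L29-3, 106 and 82.2 for L43-5, 102 and 114 for L46-8, and 85.2 and 59.8 for L49-3. Each side was higher in 2 embryos, and the sides overlapped. Left and right means were 94.8 ± 10.8 and 88.2 ± 23.0 (SD, n = 4), with a log2 fold change of 0.11 (95% interval -0.20 to 0.43).

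*Bmp5* (ENSMUSG00000032179; chromosome 9, 75775364 to 75900310, plus strand) encodes a ligand of the same subfamily as BMP7. Left and right values were 65.7 and 55.7 normalized counts for L29-3, 74.3 and 69.4 for L43-5, 87.9 and 63.4 for L46-8, and 46.4 and 64.8 for L49-3. The left was the higher side in 3 of 4 embryos and the lower one in L49-3. The means of 68.6 ± 17.4 and 63.3 ± 5.68 (SD, n = 4) gave a log2 fold change of 0.13 (95% interval -0.23 to 0.49). An antisense gene, *Gm26903*, shares 1878 exon bases with *Bmp5* on the opposite strand and had 3 reads in all libraries together, and the use of strand in counting is not given in the sources used here.

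*Bmp2* (ENSMUSG00000027358; chromosome 2, 133552159 to 133562885, plus strand) encodes a ligand required for heart formation. On the left and right it had 80.3 and 94.1 normalized counts for L29-3, 78.9 and 74.7 for L43-5, 89.5 and 53.3 for L46-8, and 18.6 and 34.9 for L49-3. The means of 66.8 ± 32.5 and 64.2 ± 25.7 (SD, n = 4) were close, and the ratio turned from embryo to embryo, from a log2 left/right ratio of 0.74 for L46-8 to one of -0.90 for L49-3. The fitted log2 fold change was 0.06 (95% interval -0.37 to 0.49).

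*Bmp10* (ENSMUSG00000030046; chromosome 6, 87428994 to 87437677, plus strand) encodes a ligand made chiefly by cardiomyocytes. It was measured by few reads, 15 in the left libraries and 31 in the right ones. Reads on the left and right were 8 and 6 for L29-3, 3 and 13 for L43-5, 3 and 8 for L46-8, and 1 and 4 for L49-3. In normalized counts these were 6.49 and 7.43, 1.96 and 6.94, 2.44 and 10.2, and 1.55 and 6.65, lower on the left in 4 of 4 embryos and without overlap of the sides. The means were 3.11 ± 2.28 and 7.79 ± 1.61 (SD, n = 4). The study counts DESeq2-normalized values under 20 as background, and *Bmp10* was under 20 in all 8 libraries. A second background level of the study, 5.6, was set on its own normalized read counts, whose scale may differ from the one used here. Of all 23873 genes with a read, 687, or 2.88%, passed the threshold of the study in edgeR's test, as did 2 of the 10 members, *Bmp10* and *Chrd*. The log2 fold change of *Bmp10* was -1.32 (standard error 0.577, 95% interval -2.45 to -0.19), and its adjusted p was 0.997 from edgeR. An exact sign-flip permutation test over the 4 embryos gave a two-sided p of 0.125, the smallest that 4 pairs allow. The unadjusted p was 0.0219 from edgeR, 0.0177 from limma-voom and 0.0993 from DESeq2, and from edgeR it was 0.115 without L43-5 and 0.101 without L46-8. The ratio of left to right in single embryos had exact 95% binomial intervals that reached 1 in 3 of 4, the exception being L46-8 at 0.239 (0.0409 to 0.998), and these intervals cover counting error only, so that none of them shows a difference between the sides of an embryo.

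The cardiomyocyte list, whose genes mark the main source of BMP10, did not follow *Bmp10* in each embryo. Its ratio of left to right was 1.04 for L29-3, 0.704 for L43-5, 1.77 for L46-8 and 0.312 for L49-3, so it was higher on the left in 2 embryos and lower in the other 2. Of its 8 genes, 7 were tested, 0 passed the threshold of the study between the sides, and none was at 0 in all libraries. The fitted log2 fold changes of these 7 genes were all negative, as was that of *Bmp10*, and ran from -0.45 for *Myl7* to -0.03 for *Actc1*. The part of cardiomyocyte content in the values of *Bmp10* was not tested.

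**Figure D3:**
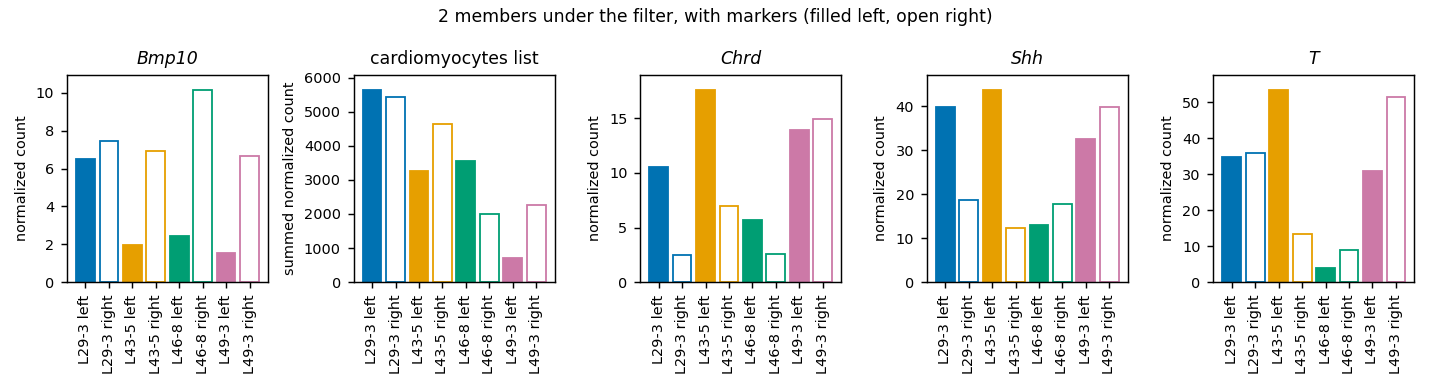
Normalized counts by library for *Bmp10* and *Chrd*, the members with the fewest reads, beside the summed cardiomyocyte list and the notochord genes *Shh* and *T*; filled bars are left libraries, open bars right libraries, and colors are embryos. *Bmp10* is lower on the left in all 4 embryos and *Chrd* is higher on the left in 3.

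*Twsg1* (ENSMUSG00000024098; chromosome 17, 65921972 to 65951226, minus strand) had 223 and 235 normalized counts on the left and right for L29-3, 244 and 171 for L43-5, 207 and 195 for L46-8, and 209 and 203 for L49-3. The log2 left/right ratio was 0.51 for L43-5 and between -0.07 and 0.07 for the other 3 embryos, and the sides overlapped. The means of 221 ± 17.0 and 201 ± 26.6 (SD, n = 4) gave a log2 fold change of 0.16 (standard error 0.106, 95% interval -0.07 to 0.39).

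*Grem1* (ENSMUSG00000074934; chromosome 2, 113746164 to 113758646, minus strand) encodes gremlin, an antagonist of the DAN family that acts chiefly on BMP2 and BMP4. Its left and right normalized counts were 30.0 and 18.6 for L29-3, 20.2 and 21.9 for L43-5, 14.7 and 47.0 for L46-8, and 40.3 and 23.3 for L49-3. No side was higher throughout, and the lowest left and the highest right library came from the same embryo, L46-8. The log2 left/right ratio had an SD of 1.12 over the 4 embryos, the largest of the 10 genes. With means of 26.3 ± 11.3 and 27.7 ± 13.0 (SD, n = 4), the log2 fold change was -0.13 (95% interval -0.91 to 0.64), the widest interval among the tested members.

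*Nog* (ENSMUSG00000048616; chromosome 11, 89300638 to 89302332, minus strand) encodes noggin. Its left and right normalized counts were 17.8 and 13.6 for L29-3, 17.6 and 14.4 for L43-5, 15.5 and 22.8 for L46-8, and 13.9 and 18.3 for L49-3. It reached 20 in 1 library, and each side was higher in 2 embryos. The means were 16.2 ± 1.85 and 17.3 ± 4.23 (SD, n = 4), with a log2 fold change of -0.02 (95% interval -0.63 to 0.59).

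*Bmper* (ENSMUSG00000031963; chromosome 9, 23223076 to 23485200, plus strand) encodes a secreted BMP-binding regulator known from endothelial cells. On the left and right it had 20.3 and 18.6 normalized counts for L29-3, 16.3 and 14.4 for L43-5, 13.0 and 15.2 for L46-8, and 12.4 and 21.6 for L49-3. The sides overlapped, with means of 15.5 ± 3.61 and 17.5 ± 3.30 (SD, n = 4) and a fitted log2 fold change of -0.09 (95% interval -0.70 to 0.51). *Bmper* had 141 reads in all libraries together and *Nog* 144, and their intervals span the fold change of 1.2 in both directions.

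*Chrd* (ENSMUSG00000006958; chromosome 16, 20733127 to 20742384, plus strand) encodes chordin. It had 56 reads in the left and 26 in the right libraries, with 13 and 2 for L29-3, 27 and 13 for L43-5, 7 and 2 for L46-8, and 9 and 9 for L49-3. The corresponding normalized counts were 10.5 and 2.48, 17.6 and 6.94, 5.70 and 2.54, and 13.9 and 15.0, higher on the left in 3 of 4 embryos, with overlap of the sides. Left and right means were 11.9 ± 5.07 and 6.73 ± 5.87 (SD, n = 4). The log2 fold change was 1.03 (standard error 0.428, 95% interval 0.19 to 1.87), and its adjusted p was 0.997 from edgeR. The unadjusted p was 0.0161 from edgeR, 0.0232 from limma-voom and 0.131 from DESeq2, and from edgeR it was 0.0533 with no replicate block, 0.0855 without L29-3 and 0.169 without L43-5. An exact sign-flip permutation test gave a two-sided p of 0.25. The ratio of left to right reads, scaled by library, was 4.27 for L29-3 (exact 95% binomial interval 0.968 to 39.0), 2.54 for L43-5 (1.26 to 5.35), 2.23 for L46-8 (0.426 to 22.0) and 0.926 for L49-3 (0.326 to 2.63), and these intervals cover counting error only, not the spread between libraries. *Thpo* shares 239 exon bases with *Chrd* on the opposite strand and had 20 reads in all libraries.

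Chordin is made by the notochord, which lies along the midline where the heart fields were separated. The notochord and floor plate list (6 genes) summed to 113 to 194 normalized counts on the left and 122 to 202 on the right. Its ratio of left to right was 0.920 for L29-3, 1.29 for L43-5, 0.929 for L46-8 and 0.940 for L49-3. Of its 6 genes, 4 were tested, 0 passed the threshold of the study, and none was at 0 in all libraries, although *Noto* had 5 reads in all. *Shh*, the morphogen of notochord and floor plate, had 39.7 and 18.6 normalized counts on the left and right for L29-3, 43.7 and 12.3 for L43-5, 13.0 and 17.8 for L46-8, and 32.5 and 39.9 for L49-3, and did not pass the test (unadjusted p of 0.0729 from edgeR). *T*, which encodes the notochord transcription factor brachyury, had 34.9 and 35.9, 53.5 and 13.3, 4.07 and 8.88, and 31.0 and 51.5 in the same order of embryos. The log2 fold changes of the 4 tested genes were 0.71 for *Shh*, 0.37 for *T*, -0.11 for *Foxa1* and -0.31 for *Foxa2*, so that they did not go one way. Of the 3 embryos in which *Chrd* was higher on the left, *Shh* was so in 2, and *T* and the sum of the list in L43-5 alone. That sum rested mostly on *Foxa1* and *Foxa2*, with means of 73.7 and 35.8 normalized counts, against 29.1 for *T* and 27.2 for *Shh*. The part of notochord content in the values of *Chrd* was not tested.

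**Figure D4:**
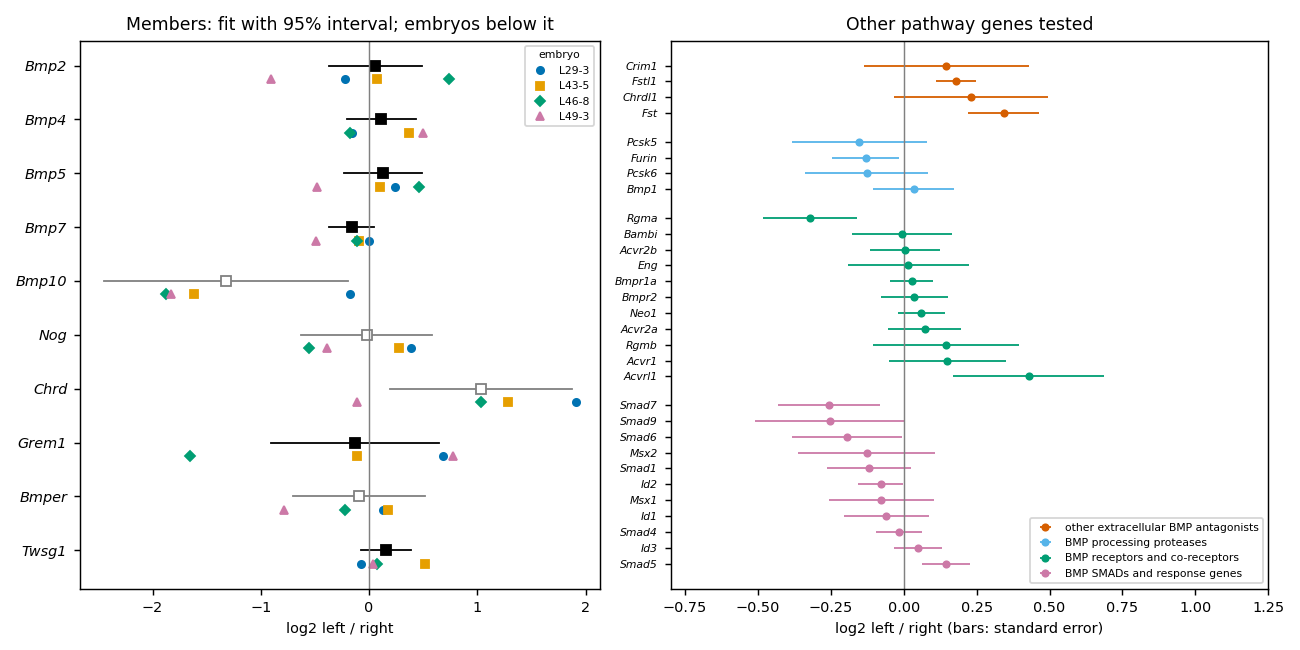
Log2 ratios of left to right. In the left panel, the upper marker of each of the 10 genes is the fitted value with its 95% interval (open where the gene was under the filter) and the lower symbols are the 4 embryos; in the right panel, the other pathway genes tested are shown with their standard errors. Intervals of 8 of the 10 genes include 0, the exceptions being *Bmp10* and *Chrd*. Open markers come from the fit to all genes with a read, whose intervals are not on the same footing as those of the tested genes.

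Between embryos, *Bmp2* was the most variable of the members that could be tested. Its mean over both sides was 87.2 normalized counts for L29-3, 76.8 for L43-5, 71.4 for L46-8 and 26.7 for L49-3. The log2 SD over the 8 libraries holds the spread between the sides as well as that between embryos. It was 0.81 for *Bmp2*, 0.56 for *Grem1*, 0.29 for *Bmp4*, 0.27 for *Bmp5*, 0.16 for *Twsg1* and 0.15 for *Bmp7*. In edgeR's test of the embryo, with the side as covariate, the adjusted p of *Bmp2* was 0.156 and its unadjusted p 0.00192. It was the single gene of the 6 members with an unadjusted p of at most 0.05, which held for 9.99% of all genes tested, and none of the 6 had an adjusted p under 0.05, which held for 17 genes, or 0.174%. Without L49-3, the unadjusted p of *Bmp2* was 0.560 from edgeR, and no gene of the table had an adjusted p under 0.05. Without L46-8, the embryo with the highest ratio of left to right for *Bmp2*, the adjusted p was 0.0149 from edgeR, and 236 genes then had one under 0.05. With no filter on low counts it was 3.21e-06 from edgeR, and 641 of 23873 genes then had one under 0.05. The other 5 tested members had unadjusted p between 0.154 and 0.663 from edgeR.

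The libraries low in *Bmp2* were also low in the juxta-cardiac field, cardiomyocyte and surface ectoderm lists, though not in every marker list. The 3 lowest libraries were the left and right of L49-3 and the right of L46-8, at 18.6, 34.9 and 53.3 normalized counts, and the other 5 ranged from 74.7 to 94.1. The same 3 libraries were the lowest in the juxta-cardiac field list, at 71.2, 161 and 349 normalized counts, and in the cardiomyocyte list, at 709, 2273 and 2006. The other 5 libraries ranged from 480 to 708 and from 3272 to 5640. A list that is not cardiac, surface ectoderm (6 genes), had the same 3 lowest libraries. In it they had 790, 1050 and 1024 normalized counts, and the other 5 ranged from 1145 to 1423. For the second heart field list these 3 libraries had 842, 921 and 830 normalized counts, within the range of the others. Still, 2 of them were among the 3 lowest libraries in that list. Of the juxta-cardiac genes, *Tbx5*, a transcription factor of the first heart field, had an adjusted p of 0.0201 from edgeR between embryos, and all 4 genes had an unadjusted p of at most 0.05. Of the cardiomyocyte genes, *Myh6* had an adjusted p of 0.0470 from edgeR between embryos, and 6 of 7 tested had an unadjusted p of at most 0.05. Over all genes tested, 9.99% had such an unadjusted p between embryos. Whether the tissue content of the libraries plays a part in the values of *Bmp2* was not tested.

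**Figure D5:**
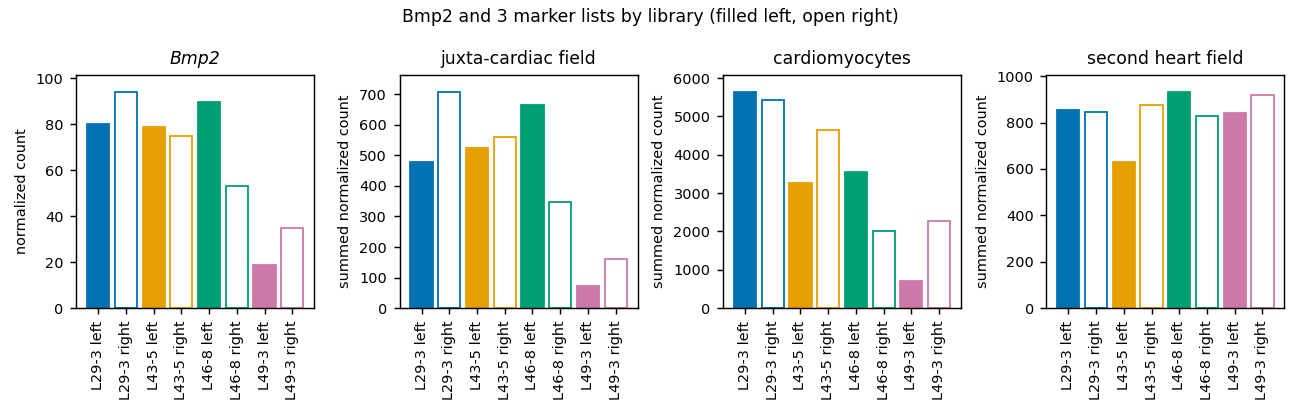
*Bmp2* and the summed juxta-cardiac field, cardiomyocyte and second heart field lists in normalized counts by library; filled bars are left libraries, open bars right libraries, and colors are embryos. Both libraries of L49-3 and the right library of L46-8 are the lowest 3 in *Bmp2* and in the first 2 lists, while the second heart field list stays between 629 and 933.

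Of 53 other genes of the pathway, 30 were tested, and 16 had a positive and 14 a negative log2 fold change of left over right, with a median of 0.01 beside -0.0042 for all genes tested. The single gene past the threshold of the study was *Fst*, encoding the activin and BMP antagonist follistatin, higher on the left, and none was lower. This is 1 of 30 genes, close to the 3.05% of all genes tested, and so not a result about the pathway. *Fst* had 202 and 158 normalized counts on the left and right for L29-3, 176 and 130 for L43-5, 145 and 156 for L46-8, and 249 and 153 for L49-3. The left was the higher side in 3 of 4 embryos, at a fitted log2 fold change of 0.34 (SE 0.122), where edgeR gave an adjusted p of 0.987. Its unadjusted p was 0.0157 from edgeR and 0.0602 from DESeq2, and from edgeR it was 0.0645 without L43-5 and 0.0932 without L49-3.

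Among the 14 other extracellular antagonists, 4 were tested, all with positive log2 fold changes, from 0.15 to 0.34, and *Fstl1*, a follistatin-related secreted protein, was the highest per length at 67.8 CPM per kb, above all 10 members. None of the 9 other BMP and GDF ligands reached the filter, and *Bmp6*, the highest of them, had 2.03 CPM per kb. Of 6 processing proteases, which cleave BMP precursors or chordin, 4 were tested, with log2 fold changes from -0.15 to 0.03 and with *Furin* highest at 8.43 CPM per kb. Of 12 receptors and co-receptors, 11 were tested, 9 with a positive and 2 with a negative log2 fold change, from -0.32 to 0.43, and the type I receptor *Bmpr1a* was the highest at 30.5 CPM per kb. Of 12 SMADs and response genes, 11 were tested, 2 with a positive and 9 with a negative log2 fold change, from -0.26 to 0.14. The response gene *Id2* was the highest of these, at 89.5 CPM per kb, with a log2 fold change of -0.08. Apart from *Fst*, no gene of these lists passed the threshold, and without the filter *Bmp6* (log2 fold change -0.75), *Bmpr1b* (0.68) and *Rgma* (-0.31) also did. Without the filter, 2.88% of all genes with a read passed.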

How the data were processed

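The authors mapped paired-end reads of poly-A RNA with Hisat2 (genome build GRCm38), left out duplicates and deposited raw counts per gene from featureCounts, with strand use and tool versions not given in the sources used here. Excluding duplicates without molecular identifiers lowers the counts of highly expressed genes most. Genes were named from GENCODE vM21 (48058 of 48526 matched), and the only genes at least 90% identical to a member over 100 bases were *Gm26903* for *Bmp5* and *Thpo* for *Chrd*, which overlap them on the opposite strand.

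Genes with at least 20 DESeq2-normalized counts in at least 4 of 8 libraries were tested with edgeR 4.0.16 in R 4.3.3 (TMM, quasi-likelihood test, embryo as a block, Benjamini-Hochberg adjustment). This procedure was tried on simulated data, for genes past the filter and with changes larger than those of the tested members. The fit without the filter was not simulated. DESeq2 1.42.0, limma 3.58.1 (voom), no replicate block, DESeq2 size factors, library size alone, a filter of at least 10 counts in every library, no filter, and each embryo left out were alternatives. The pairing comes from the animal, since both sides are of the same embryo. Their deviations from the side means correlated at 0.164, 0.194, -0.0107 and 0.444. Left and right libraries of different embryos correlated at -0.389 to 0.257, so that the pair of L49-3 alone lay above all of these. No pair of libraries agreed within sampling noise, the lowest chi-square per degree of freedom being 1.93. Log2 ratios of single embryos use a prior count of 0.5.

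All 10 members are named, together with other pathway genes past the threshold of the study or highest per length, and the 3 genes nearest in pattern to each of the 3 most variable tested members. Notochord, heart field, cardiomyocyte and neural tube markers were also named beside members, and the sum of the surface ectoderm list was given beside *Bmp2*. The members and lists were chosen with earlier results of these data known. The other tissue lists and the imaging, single cell and mutant data of the study were not used here.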

Additional observations from a re-analysis of the deposited data

Results flagged for a closer look

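In 3 of 24 groups of 4 libraries, a value lay far from the other 3 by Dixon's criterion, which about 1 group in 20 meets by chance. *Bmp2* on the left had 18.6 normalized counts in L49-3, against 78.9 to 89.5 in the other 3 embryos. *Bmp7* on the right had 291 in L49-3, against 229 to 232. *Grem1* on the right had 47.0 in L46-8, against 18.6 to 23.3.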

How the results depend on the processing

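Without the filter on low counts, 2 members instead of 0 and 4 other pathway genes instead of 1 passed the threshold of the study between the sides. In that fit 687 of 23873 genes, or 2.88%, passed. Between embryos, 1 member instead of 0 then had an adjusted p under 0.05, as did 641 of 23873 genes. With DESeq2 the count of other pathway genes past the threshold was 0. Leaving out 1 embryo at a time gave 0 to 1 members between embryos. The 1 came without L46-8, where 236 of 9744 genes had an adjusted p under 0.05. Between the sides it gave 0 to 3 other pathway genes, and the share over all genes was not counted for these fits. Without the replicate block, the log2 fold change of *Chrd* was 0.90 (unadjusted p of 0.0533 from edgeR), and no other member moved across the threshold. Leaving out 1 embryo gave log2 fold changes from -0.17 (without L46-8) to 0.17 for *Bmp2*, from -0.0030 (without L43-5) to 0.22 for *Bmp4*, from -0.38 to 0.39 (without L46-8) for *Grem1*, from -0.17 to 0.15 (without L46-8, and 0.035 without L49-3) for *Nog*, and from -0.23 to 0.042 (without L49-3) for *Bmper*. The causes were not tested. Of the members' log2 fold changes, 89 kept direction and side of the threshold, 7 kept the direction alone and 6 turned. The ratio of ligand to binding protein sums was 1.95 per kb of the longest transcript. *Bmp10*, *Chrd*, *Nog* and *Bmper* are limited by their reads.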

Other observations

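For the 3 tested members that varied most over the 8 libraries, the genes of most similar pattern were found by the root mean square difference of centred log2 values, over 9743 genes. *Bmp2*, with an SD of 0.81 on the log2 scale, was followed most closely by *Arhgap31*, a GTPase-activating protein gene, at a difference of 0.13. *Lyn* and *Ptk2b*, which encode tyrosine kinases, were next, both at 0.19. For *Grem1*, with an SD of 0.56, the nearest genes were *St8sia3*, *Gm12261* and *Gm6457* at 0.24, 0.26 and 0.28. For *Bmp4*, with an SD of 0.29, they were *Clec16a*, *Slc27a3* and *Tsen15* at 0.09, 0.10 and 0.11. The nearest of so many genes are close by selection, and no test was run.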
